A study of Mus musculus with 69 samples.

Results

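Loss of the transcription factor c-Maf was followed in mouse type 1 regulatory T (Tr1) cells by setting the 3 libraries titled Maf_KO against the 3 control libraries that the Prdm1 and Maf knockouts share. These 6 libraries, chosen by their titles, are 6 of the 69 bulk RNA-seq libraries of a series on transcription factor knockouts. Naive CD4 T cells of C57BL/6 mice had been kept for 72 h in medium with IL-27 (25 ng/ml) and antibodies against CD3 (1 ug/ml) and, as labelled, against CD8 (1 ug/ml). RNA of 2000 lysed cells per library went into an adapted SMART-Seq2 protocol, which keeps no strand.

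Maf_KO cells have the genotype CD4 Cre(+/-); Maf f/f, in which Cre recombinase, driven by CD4 regulatory sequence, deletes floxed Maf in all T cells that pass through the CD4-expressing thymic stage. The controls are labelled Prdm1/Maf control (Cre-), so that the presence of Cre and the loss of Maf cannot be told apart in this comparison. Another 2 groups were used to see how the changes behave without Prdm1, all carrying Cre: Prdm1_KO (CD4 Cre(+/-); Prdm1 f/f, 3 libraries) and the double knockout, DKO (the same Cre with both floxed genes, Prdm1 f/f and Maf f/f, 2 libraries used). The third DKO library held 9056 counts over 176 detected genes and was left out of every fit. No label gives the age or sex of the animals or states that replicates come from different animals or cultures. The p-values therefore cover only the spread between these libraries, which may be technical.

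c-Maf is a basic leucine zipper factor of the AP-1 superfamily that binds DNA through Maf recognition elements. IL-27 induces it in CD4 T cells, where it is known to drive transcription of Il10 and Il21. Tr1 cells lack the regulatory T cell factor Foxp3 and suppress mainly through IL-10, the cytokine by which they are recognised, and Prdm1 encodes Blimp-1, a further factor known to sustain Il10.

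The 11 libraries of the fit held between 7571823 and 11203008 counts and detected 13002 to 13644 genes. T cell genes were at like levels in both groups, with a summed level of 7524 to 7614 CPM, the count scaled to library size in the controls and 7548 to 7613 in Maf_KO. Cd4 was present at 622, 547 and 618 CPM in the controls and 563, 526 and 539 in Maf_KO. It did not pass, except as a fall without control 2 (log2 -0.19, adjusted p = 0.0456 in edgeR). Marker lists of other cells were low: the summed level ranged from 17.0 to 18.3 CPM in the controls and 13.1 to 17.2 in Maf_KO for B cells, 17.0 to 18.9 and 16.6 to 22.7 for CD8 T and NK cells, 0.135 to 0.497 and 0.314 to 0.621 for erythroid cells and platelets, and 0.119 to 0.298 and 0.373 to 0.524 for gamma delta T cells. Trdc, Tcrg-C1 and Tcrg-V6 were not among the genes measured, so the gamma delta T cell sum rests on Sox13, Blk, Cd163l1 and Zbtb16. Ighm and Ighd were likewise missing from the B cell sum. Myeloid and dendritic markers summed to 241 to 273 CPM in the controls and 268 to 291 in Maf_KO. In all 6 libraries 8 of the 24 myeloid and dendritic markers were at 0, Lyz2, C1qa, S100a8 and Clec9a among them, as were the B cell factor Pax5 and the NK receptor Ncr1. Rising members of these lists were Cd8a, at 0.0995, 0.270 and 0 CPM in the controls and 1.37, 0.628 and 0.539 in Maf_KO, and the B cell gene Cd22, at 0, 0.270 and 0 and 0.994, 0.419 and 0.754. Both were below the level of 3 counts (0.255 to 0.406 CPM) in the controls. Each lost its call without control 1, control 3 or Maf_KO 1 and Cd22 also without Maf_KO 3, with log2 changes from 2.17 to 2.95. The part of these cells in the results that follow was not tested. In bulk RNA, fewer cells of a type and less RNA per cell cannot be told apart.

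Maf was counted 491, 371 and 395 times in the control libraries and 0 times in each of the 3 Maf_KO libraries. Every knockout library thus lacked the transcript that every control library had. Taken against a floor of 3 counts in each library, the level was at least 145-fold lower, and the labels and the counts of the targeted gene match in all 6 libraries. In Prdm1_KO, Maf stood at 27.7, 23.8 and 23.1 CPM, below the 48.8, 50.2 and 47.03 CPM of the controls, and DKO 1 and 2 had 0 counts. In the authors' TPM, which correct for transcript length, control cells had a mean Maf level of 18.6 TPM, at rank 4433 of the 11316 genes tested.

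Il10 fell the most of all genes past the threshold with at least 20 CPM in either group and no overlap between groups, Maf itself aside. It stood at 88.8, 83.8 and 85.8 CPM in the controls and at 8.82, 9.22 and 10.3 CPM in Maf_KO. All 3 knockout libraries lay far below all controls, with little spread in either group. The fall was 9.08-fold, a log2 change of -3.18 ± 0.13 (SE), with an adjusted p of 6.62e-13 in edgeR's quasi-likelihood test with Benjamini-Hochberg adjustment over all 11316 tested genes, as for every adjusted p given here. Some Il10 message remained in each Maf_KO library, with 71, 88 and 96 counts. Prdm1_KO libraries held less, 2.35, 2.03 and 0.702 CPM, and the DKO libraries 0.765 and 1.36 CPM, which is 8 to 24 counts in a library. Both groups lacking Prdm1 thus lay below the Maf_KO libraries. Set directly against Prdm1_KO, Maf_KO was higher in Il10 by 2.52 ± 0.23 on the log2 scale (adjusted p = 1.23e-07, edgeR).

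**Figure D1:**
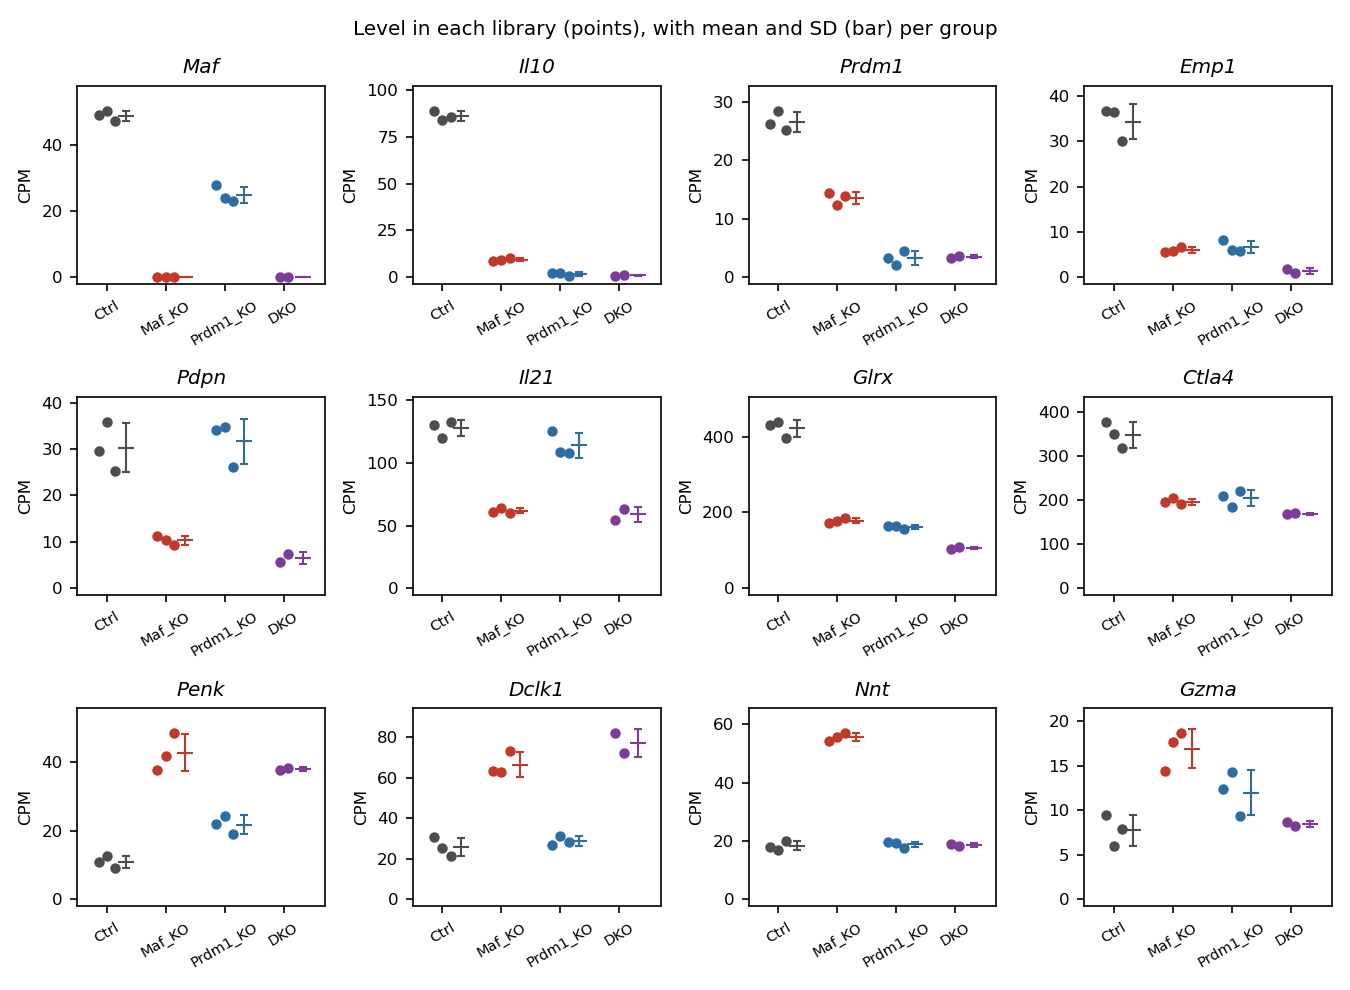
Level of 12 genes in each of the 11 libraries, in CPM on linear axes from 0, with points for libraries and a bar for the mean and SD of each group. Maf and Il10 are highest in the 3 controls, and in Maf_KO Maf is at 0 while Il10 remains at 8.82 to 10.3 CPM. Penk and Dclk1 are higher in both Maf-deficient groups than in the groups they are set against, and Nnt is high in Maf_KO alone.

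Across the genome the loss of Maf was followed by many small changes and few large ones. Of 11316 tested genes 1021 passed the threshold of 0.05 (9.02%), of which 445 rose (3.93% of the tested genes) and 576 fell (5.09%). Among the called genes 65.6% changed by less than 0.5 on the log2 scale, 31 rose by 1 or more and 59 fell by 1 or more. The median change was 0.39 for rises and -0.38 for falls, and that of all tested genes was 0.00. Values of the 3 and 3 libraries did not overlap in 996 of the called genes, against 28.7% of all tested genes. The count depended on the libraries: it was 547 without control 1 and 628, 510 and 592 without Maf_KO 1, 2 and 3.

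**Figure D2:**
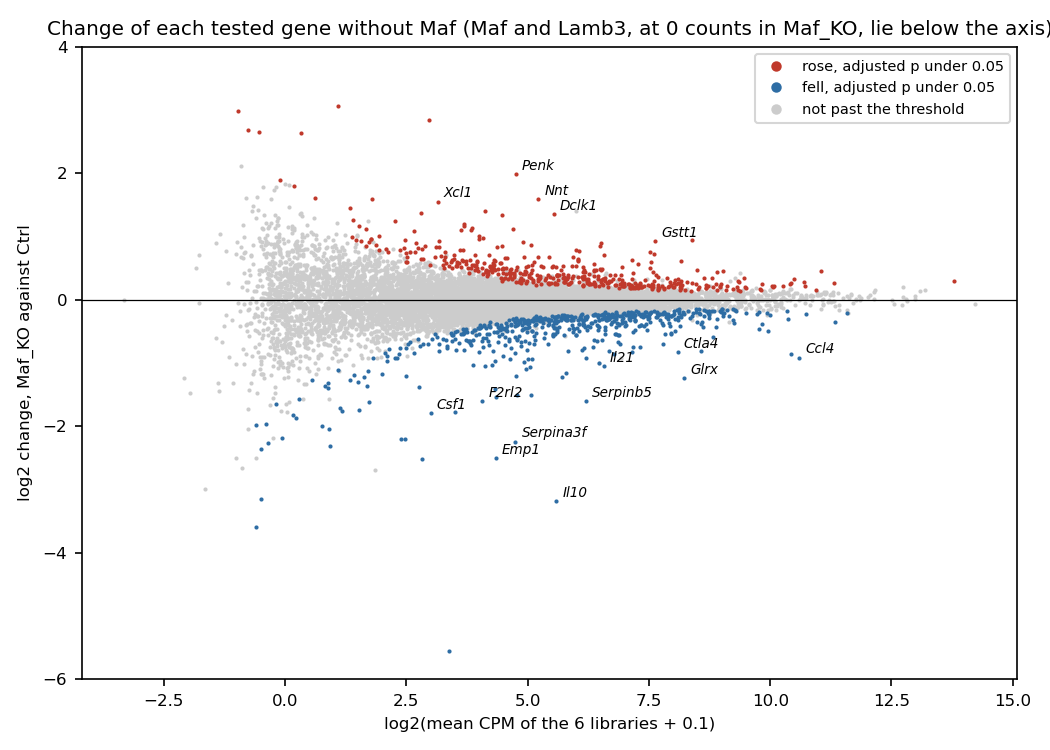
Log2 change in Maf_KO against the controls for each tested gene, against the log2 of its mean CPM plus 0.1 over the 6 libraries. Genes that rose (445) and fell (576) past an adjusted p of 0.05 are coloured, most of them lie within 0.5 of no change, and Il10, Emp1 and Serpina3f stand lowest among the labelled falls.

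The largest falls and rises past the threshold, with at least 20 CPM in either group and no overlap of the libraries, were named, 15 in each direction. Where a lack of overlap is given for these genes, it was set by this choice. RefSeq gave a promoter window for 12 of the named rises and 12 of the named falls. Il10 and Cysltr1 among the falls and Penk, Nnt and Klhdc5 among the rises had no window and were not searched. The 7 in which a motif of the AP-1 superfamily was found within the 250 bases before the start are printed here, to show the sequence upstream of genes that moved with Maf. The motifs searched on both strands were TGCTGA, a part of the Maf recognition element, and TGACTCA, the AP-1 site. Their matches do not overlap in these windows. Capitals mark the matches, either strand, in 5′ to 3′ sequence on the gene's strand, from RefSeq on the build GRCm38.p6 and, where a gene had several starts, from the first listed.
Emp1 (fell; chr6:135362681-135362930, + strand): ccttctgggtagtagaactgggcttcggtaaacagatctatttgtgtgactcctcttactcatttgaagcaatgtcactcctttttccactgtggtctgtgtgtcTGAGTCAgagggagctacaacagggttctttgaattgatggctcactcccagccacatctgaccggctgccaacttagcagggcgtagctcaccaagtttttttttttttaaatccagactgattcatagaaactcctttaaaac
Serpina3f (fell; chr12:104214294-104214543, + strand): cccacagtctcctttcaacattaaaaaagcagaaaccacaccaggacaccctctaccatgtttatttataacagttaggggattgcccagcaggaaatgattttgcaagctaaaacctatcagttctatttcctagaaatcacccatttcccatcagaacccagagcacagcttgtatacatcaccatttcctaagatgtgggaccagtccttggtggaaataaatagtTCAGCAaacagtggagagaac
Serpinb5 (fell; chr1:106860925-106861174, + strand): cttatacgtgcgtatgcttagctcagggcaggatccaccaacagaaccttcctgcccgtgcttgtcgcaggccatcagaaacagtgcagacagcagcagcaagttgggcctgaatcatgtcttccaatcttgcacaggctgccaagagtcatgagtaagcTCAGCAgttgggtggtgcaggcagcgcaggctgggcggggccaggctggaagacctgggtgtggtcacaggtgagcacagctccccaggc
F2rl2 (fell; chr13:95696670-95696919, + strand): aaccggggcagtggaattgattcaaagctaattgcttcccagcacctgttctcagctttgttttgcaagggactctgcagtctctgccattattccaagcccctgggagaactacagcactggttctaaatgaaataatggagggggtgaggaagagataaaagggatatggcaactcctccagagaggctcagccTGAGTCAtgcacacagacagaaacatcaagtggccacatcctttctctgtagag
Glrx (fell; chr13:75839635-75839884, + strand): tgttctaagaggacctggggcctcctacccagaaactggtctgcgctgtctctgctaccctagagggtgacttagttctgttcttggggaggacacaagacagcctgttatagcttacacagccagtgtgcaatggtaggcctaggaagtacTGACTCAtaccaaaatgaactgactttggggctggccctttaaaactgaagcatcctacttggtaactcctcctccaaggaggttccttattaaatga
Chit1 (rose; chr1:134110992-134111241, + strand): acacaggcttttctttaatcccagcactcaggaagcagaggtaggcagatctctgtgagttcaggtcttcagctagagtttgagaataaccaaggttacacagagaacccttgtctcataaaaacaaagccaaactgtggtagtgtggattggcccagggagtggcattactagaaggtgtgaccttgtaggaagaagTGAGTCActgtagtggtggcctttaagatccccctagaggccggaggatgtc
S100a6 (rose; chr3:90612644-90612893, + strand): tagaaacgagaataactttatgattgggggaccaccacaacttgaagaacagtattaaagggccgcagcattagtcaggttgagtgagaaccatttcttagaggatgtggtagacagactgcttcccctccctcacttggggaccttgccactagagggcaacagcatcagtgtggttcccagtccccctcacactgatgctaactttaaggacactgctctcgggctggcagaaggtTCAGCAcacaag
A TGCTGA match lay in 15.8% of all 27025 promoters of the table, in 12.2% of those of tested genes, in 9.51% of 347 rises and in 15% of 460 falls. For TGACTCA the shares were 4.43% of all promoters, 2.94% of tested genes, 3.46% of rises and 6.09% of falls. A match is a description of these letters and does not show binding.

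Below Il10, the falls were led by membrane and secreted proteins. Emp1, a tetraspan membrane protein whose promoter above holds an AP-1 site, was at 36.7, 36.4 and 30.01 CPM in the controls and 5.59, 5.76 and 6.68 in Maf_KO. All knockout libraries lay below all controls, a fall of 5.70-fold (log2 -2.51 ± 0.16, adjusted p = 5.54e-10 in edgeR). Podoplanin (Pdpn), a mucin-type glycoprotein counted among the co-inhibitory molecules of T cells, stood at 29.5, 35.8 and 25.4 CPM in the controls and 11.3, 10.5 and 9.38 in Maf_KO. It too was lower in every knockout library (log2 -1.54 ± 0.15, adjusted p = 4.41e-07 in edgeR). Cysltr1, the receptor for cysteinyl leukotrienes, went from 38.7, 39.5 and 43.3 CPM to 13.8, 14.3 and 14.6 CPM. F2rl2, the protease-activated receptor PAR3, went from 24.4, 29.2 and 21.7 to 8.82, 8.80 and 7.11 CPM, so that both receptors were lower in every knockout library than in any control. Angptl2, a secreted angiopoietin-like protein, went from 79.2, 70.5 and 67.5 to 30.3, 28.8 and 34.5 CPM, and Cdh23, a cadherin, from 46.5, 43.8 and 37.3 to 19.9, 18.5 and 21.1 CPM. Their log2 changes were -1.51, -1.60, -1.22 and -1.10, with edgeR adjusted p-values of 2.19e-09, 1.27e-06, 5.11e-08 and 1.27e-05.

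Protease inhibitors and proteases formed a further group of falls. Serpina3f, a serine protease inhibitor, was at 43.3, 42.7 and 46.2 CPM in the controls and 8.95, 9.22 and 9.70 in Maf_KO, and its neighbour Serpina3g at 36.1, 35.97 and 41.6 and 16.5, 14.98 and 17.7. Reads can be split between these near-identical paralogs, so the share of each is uncertain, but both were lower in all 3 knockout libraries (log2 -2.24 ± 0.15 and -1.21 ± 0.09). Serpinb5, which encodes maspin, stood at 114, 105 and 111 CPM in the controls and 35.9, 33.6 and 38.9 in Maf_KO (log2 -1.61 ± 0.10, adjusted p = 3.08e-10 in edgeR). Furin, the proprotein convertase that processes many secreted precursors, fell from 51.2, 50.98 and 46.7 to 17.02, 15.5 and 19.9 CPM, and no library crossed over. Timp1, an inhibitor of metalloproteinases, was at 99.1, 102 and 89.7 CPM in the controls and 46.6, 47.03 and 59.1 in Maf_KO, and Mmp9, the gelatinase, at 9.95, 7.84 and 7.50 and 3.23, 1.47 and 0.970. In the list of 26 tested serpins and proteases 8 fell and 1, Serpinb9b, rose, with a list median of -0.17 against 0.00 for all tested genes.

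Of the other named falls, Glrx was the most abundant. This glutaredoxin, which reduces glutathionylated proteins, stood at 429.7, 439 and 397 CPM in the controls and 172, 177 and 186 in Maf_KO. The groups were 2.36-fold apart, with an adjusted p of 6.62e-13 in edgeR, the same as that of Il10. Dhrs7, a short-chain dehydrogenase, fell from 44.8 to 21.5 CPM on average, a log2 change of -1.06.

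Penk led the rises. This gene, the precursor of the enkephalin opioid peptides, stood at 10.9, 12.6 and 9.05 CPM in the controls and 37.8, 41.9 and 48.5 CPM in Maf_KO. Every knockout library was far above any control, with a mean of 10.9 ± 1.76 (SD, n = 3) against 42.7 ± 5.42 (SD, n = 3) and a log2 change of 1.98 ± 0.12 (adjusted p = 5.54e-10, edgeR). Dclk1, a doublecortin-like kinase, was at 30.5, 25.4 and 21.6 CPM in the controls and 63.4, 62.8 and 73.5 in Maf_KO, again with no overlap (log2 1.36 ± 0.11, adjusted p = 1.48e-08 in edgeR). Chit1, the chitinase chitotriosidase, went from 17.5, 16.1 and 15.2 to 38.6, 37.2 and 31.3 CPM and S100a6, a calcium-binding protein, from 50.03, 49.4 and 47.03 to 76.4, 80.8 and 93.99 CPM. Their log2 changes were 1.13 and 0.78, with adjusted p-values of 7.45e-07 and 5.42e-07 in edgeR. Gstt1, a glutathione transferase with a close paralog beside it, was the most abundant named rise, at 132, 142 and 133 CPM in the controls and 265, 247 and 264 in Maf_KO. Nnt, the mitochondrial nicotinamide nucleotide transhydrogenase, stood at 18, 17.04 and 20 CPM in the controls and 54.4, 55.5 and 57.02 in Maf_KO, 3.03-fold higher. Nnt is known to be disrupted in the C57BL/6J substrain and the labels give C57BL/6 only.

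Among the remaining named rises, some had uneven controls. Rnf187, a RING finger protein, was at 34.9, 61.2 and 95.3 CPM in the controls and 109.9, 135 and 109 in Maf_KO. Dusp2, a phosphatase of MAP kinases, was at 37.8, 68.5 and 87.4 and 111, 124 and 110.3 CPM, and Lamp1, the lysosomal membrane protein that marks degranulation at the surface, at 31.9, 47.5 and 61.9 and 83.1, 84.4 and 75.3 CPM. In each of the 3 genes control 1 was lowest and control 3 highest, and control 3 came near the knockout libraries. The call of Rnf187 was lost without Maf_KO 2 (log2 0.79, adjusted p = 0.0524 in edgeR), and both Rnf187 and Dusp2 missed the threshold in DESeq2. M1ap, Klhdc5, Ifitm1, Sema4f, Smtn and Serpinb9b rose by 0.98, 0.96, 0.92, 0.87, 0.85 and 0.84 on the log2 scale, from control means of 10.9 to 23.6 CPM.

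**Figure D3:**
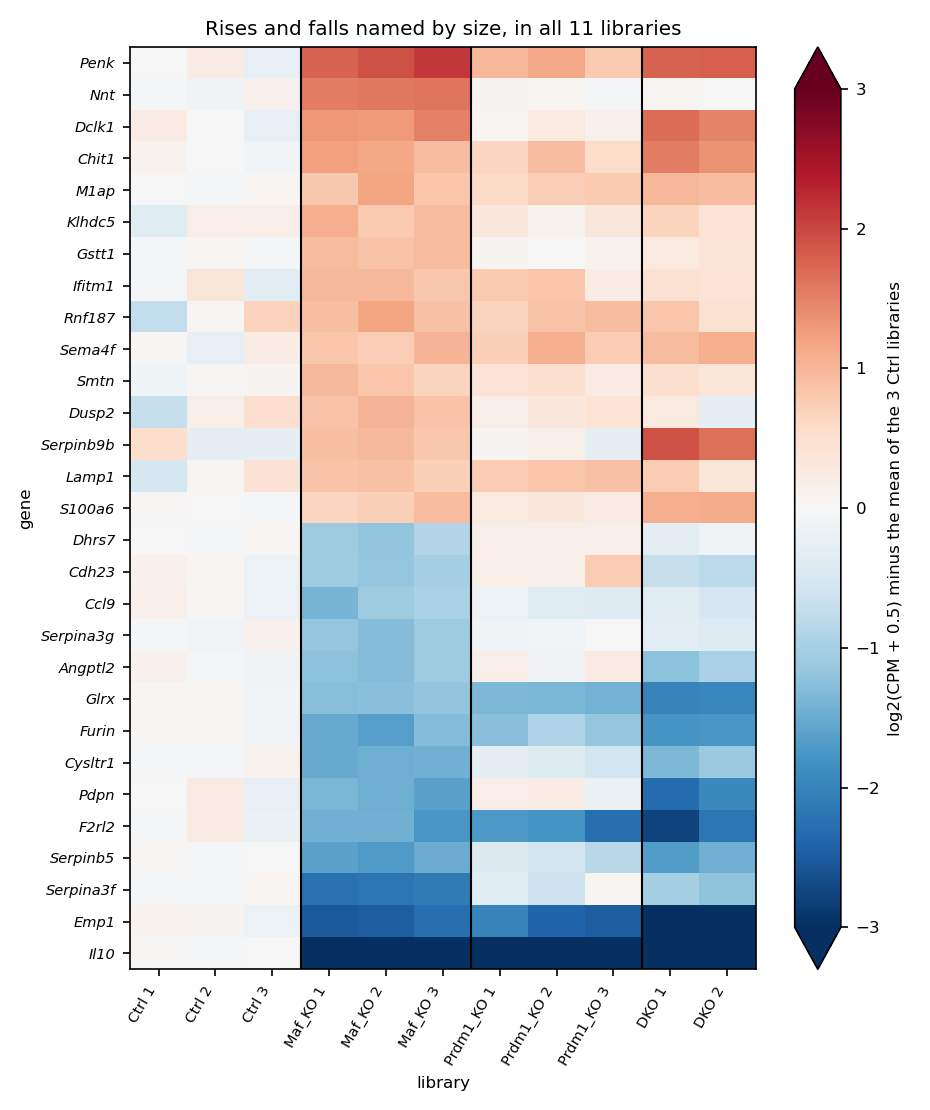
Log2(CPM + 0.5) of the 15 named rises and 14 of the 15 named falls in all 11 libraries, minus the mean of the 3 controls, with colours capped at 3 in either direction. Rows chosen on the 6 control and Maf_KO libraries separate them by construction, while the 5 libraries without Prdm1 show which genes also moved there: Emp1, Glrx, Furin and F2rl2 are low in all 5, and Nnt and Gstt1 are close to the controls.

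The Tr1 programme was hit in part. Of 23 tested Tr1 markers 11 fell, Maf and Il10 included, 1 rose and 11 did not pass the test. The list median was -0.21. Of all tested genes 5.09% fell and 3.93% rose, the shares beside which every list count given here stands. The fall of Maf was set by the knockout. Il21, the cytokine through which IL-27 is known to expand Tr1 cells, was at 131, 120.3 and 133 CPM in the controls and 61.2, 64.4 and 60.4 in Maf_KO. It fell 2.06-fold in all 3 libraries (log2 -1.04 ± 0.07, adjusted p = 4.17e-09 in edgeR). Prdm1 was at 26.2, 28.4 and 25.1 CPM in the controls and 14.4, 12.4 and 13.9 in Maf_KO, a log2 change of -0.97 ± 0.15 (adjusted p = 1.52e-04, edgeR). Every Maf_KO library thus had less Prdm1 message than any control. Entpd1, which encodes the ectonucleotidase CD39, fell from 44.4, 39.6 and 41.7 to 25.1, 18.4 and 22.7 CPM, while Nt5e, the CD73 enzyme that acts after it, rose from 17.8, 17.9 and 16.3 to 25.3, 26.4 and 21.02 CPM. These enzymes, which act one after the other from ATP to adenosine, moved in opposite directions, though the rise of Nt5e missed the threshold without Maf_KO 2 (log2 0.42, adjusted p = 0.0548 in edgeR). Lag3, an inhibitory receptor used to sort Tr1 cells, and the factor Egr2 fell less, with log2 changes of -0.21 and -0.25. The call of Lag3 was lost without control 1 or 3 or Maf_KO 2 or 3, and that of Egr2 without control 2 or 3 or Maf_KO 1 or 2, where log2 changes ran from -0.24 to -0.19. Havcr2, Pdcd1, Irf4, Batf and Ahr did not pass, with log2 changes of 0.22, 0.06, -0.12, -0.11 and 0.55 and adjusted p-values from 0.122 to 0.775 in edgeR. Irf4 passed, as a fall, when only the 6 libraries were fitted or without Prdm1_KO 3 (adjusted p = 0.0391 and 0.0453).

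Genes reported elsewhere as c-Maf targets in T cells mostly fell. Of 14 tested 10 fell and 1, Ccr7, rose, with a median of -0.76. Called members were 7 without Maf_KO 2, and the call of Ccr7, a log2 change of 0.22, was also lost without control 1. This list was drawn up with earlier results of these data known, so its direction is not independent evidence. Il10, Il21, Prdm1, Icos, Tigit and Il12rb2 are well-expressed members. Icos, the co-stimulatory receptor, went from 267, 268 and 273 to 186, 175 and 192 CPM, with every knockout library below every control (log2 -0.55 ± 0.05). Il12rb2, a chain of the IL-12 receptor, went from 1227, 1085 and 1163 to 829.9, 798 and 831 CPM, also without overlap. Il23r, Il4 and Il2 also passed the test but were near the floor: Il23r at 5.57, 2.84 and 4.05 CPM in the controls and 0.870, 1.36 and 3.13 in Maf_KO, Il4 at 2.79, 1.89 and 2.98 and 0.745, 0.209 and 0.970, and Il2 at 0.497, 0.676 and 1.91 and 0.373, 0.105 and 0.108. Each of these 3 calls was lost without Maf_KO 1 or Maf_KO 2, where adjusted p-values of Il23r were 0.135 and 0.147. Il23r and Il4 were also lost without control 1, Il4 without control 3, and Il2 in 9 of the 17 alternatives. Bcl6 and Cxcr5 did not pass, at 4.81 against 5.76 CPM and 2.17 against 1.82 CPM.

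Among co-inhibitory receptors and ligands 6 of 20 fell and 3 rose, with a median of 0.01, and 5 members were called without Maf_KO 2. Ctla4, which competes with CD28 for its ligands, was at 377, 349 and 318 CPM in the controls and 195, 204 and 191 in Maf_KO. It fell 1.77-fold with no overlap (adjusted p = 1.67e-08, edgeR). Tigit went from 189, 203 and 195 to 160.5, 139.9 and 148 CPM, a smaller log2 change of -0.39 ± 0.06. Cd96, which shares ligands with Tigit, moved the other way, from 6.76, 6.76 and 5.597 to 12.6, 9.53 and 12.1 CPM (log2 0.83 ± 0.17, adjusted p = 0.00407 in edgeR). In a list of 23 co-stimulatory genes, made of the TNF family and its receptors with Cd28 and Icos, 5 rose and 4 fell, Icos among the falls, around a median of -0.11. Tnfsf8, which encodes CD30 ligand, fell from 110.0, 102 and 94.1 to 58.6, 60.5 and 63.05 CPM. Lymphotoxin genes Lta and Ltb and the death ligand Fasl rose by 0.31, 0.32 and 0.39 on the log2 scale, with adjusted p-values of 0.00731, 0.00144 and 0.00654 in edgeR. Lta missed the threshold without control 1 (log2 0.25, adjusted p = 0.0511).

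Secreted mediators fell more often than they rose. Of 17 tested cytokines 9 fell and 2, Penk and Lta, rose, with a median of -0.32, and 7 were called without Maf_KO 1 or without Maf_KO 2. Csf1, the macrophage growth factor, went from 13.03, 11.2 and 12.5 CPM in the controls to 3.73, 2.62 and 4.31 in Maf_KO. All 3 knockout libraries were lower (log2 -1.79 ± 0.20, adjusted p = 2.20e-06 in edgeR). Ifng, the Th1 cytokine, was at 92.4, 106 and 104 and 60.8, 65.2 and 67.5 CPM, a log2 change of -0.64 ± 0.08. Of 7 chemokines 4 fell and 1 rose, with a median of -0.85. The chemokine Ccl4 was among the most abundant of all transcripts, at 1915, 2177 and 1957 CPM in the controls and 981, 1093 and 1136 in Maf_KO. Ccl3, its neighbour and close relative, was at 1698, 1991 and 1664 and 879, 977 and 1111 CPM, and both lost nearly the same share in every knockout library (log2 -0.91 and -0.85). Ccl9 fell from 84.3, 77.6 and 67.04 to 28.4, 35.8 and 38.7 CPM. Ccl5 had a log2 change of only -0.22, a call lost without control 2 or Maf_KO 1 (log2 -0.15 and -0.17). Xcl1, lymphotactin, was the exception and rose from 4.28, 4.06 and 5.001 to 11.3, 12.8 and 15.1 CPM (log2 1.55 ± 0.19, adjusted p = 8.76e-06 in edgeR).

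Among receptors falls were more frequent than rises, while many did not pass. Of 16 tested chemokine and chemoattractant receptors 6 fell, 3 rose and 7 did not pass, with a median of -0.12. Among them the chemokine receptors Ccr1 and Ccr2, the oxysterol receptor Gpr183 and the leukotriene B4 receptor Ltb4r1 fell, with log2 changes of -1.03, -0.82, -0.76 and -0.94. Cxcr3, a Th1 homing receptor, rose from 10.1, 9.60 and 9.53 to 13.2, 16.03 and 15.7 CPM. Of 26 cytokine receptor chains 8 fell and 0 rose, with a median of -0.10, where 18 did not pass edgeR's test. Il27ra, a chain of the receptor through which the culture's IL-27 acts, was slightly lower, at 107, 114 and 116 CPM in the controls and 93.05, 93.1 and 95.3 in Maf_KO (log2 -0.26 ± 0.06, adjusted p = 0.00835 in edgeR). Il6st, the other chain, was at 18.3, 18.4 and 15.6 and 14.7, 10.2 and 12.8 CPM, and its call was lost without control 1 or 2 or Maf_KO 2 or 3. Called receptor chains numbered 4 without control 1, 4 without Maf_KO 2 and 5 without Maf_KO 3.

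Genes of cytotoxic effector cells rose more often than they fell. Of 18 tested 9 rose, Id2 fell and 8 did not pass, with a median of 0.29. Gzma, a granzyme, was at 9.45, 5.95 and 7.86 CPM in the controls and 14.4, 17.6 and 18.6 in Maf_KO. No library overlapped (log2 1.11 ± 0.18, adjusted p = 2.63e-04 in edgeR). Prf1, perforin, rose from 565, 590.2 and 575 to 681, 711 and 739.5 CPM and Klrk1, the NKG2D receptor, from 107, 106 and 103 to 139, 149 and 127 CPM. Gzmb, by far the most abundant of them at 8008, 7864 and 7740 CPM in the controls and 7999, 8255 and 8452 in Maf_KO, did not pass (adjusted p = 0.498, edgeR). Id2, an inhibitor of DNA binding, fell from 197, 212 and 192 to 119.9, 122 and 118 CPM. The sum of CD8 T and NK markers given above ranged from 16.6 to 22.7 CPM in Maf_KO and from 17.0 to 18.9 in the controls, and Gzma, Prf1, Klrk1 and the others are genes those cells share. Their part in the rises was not tested.

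**Figure D4:**
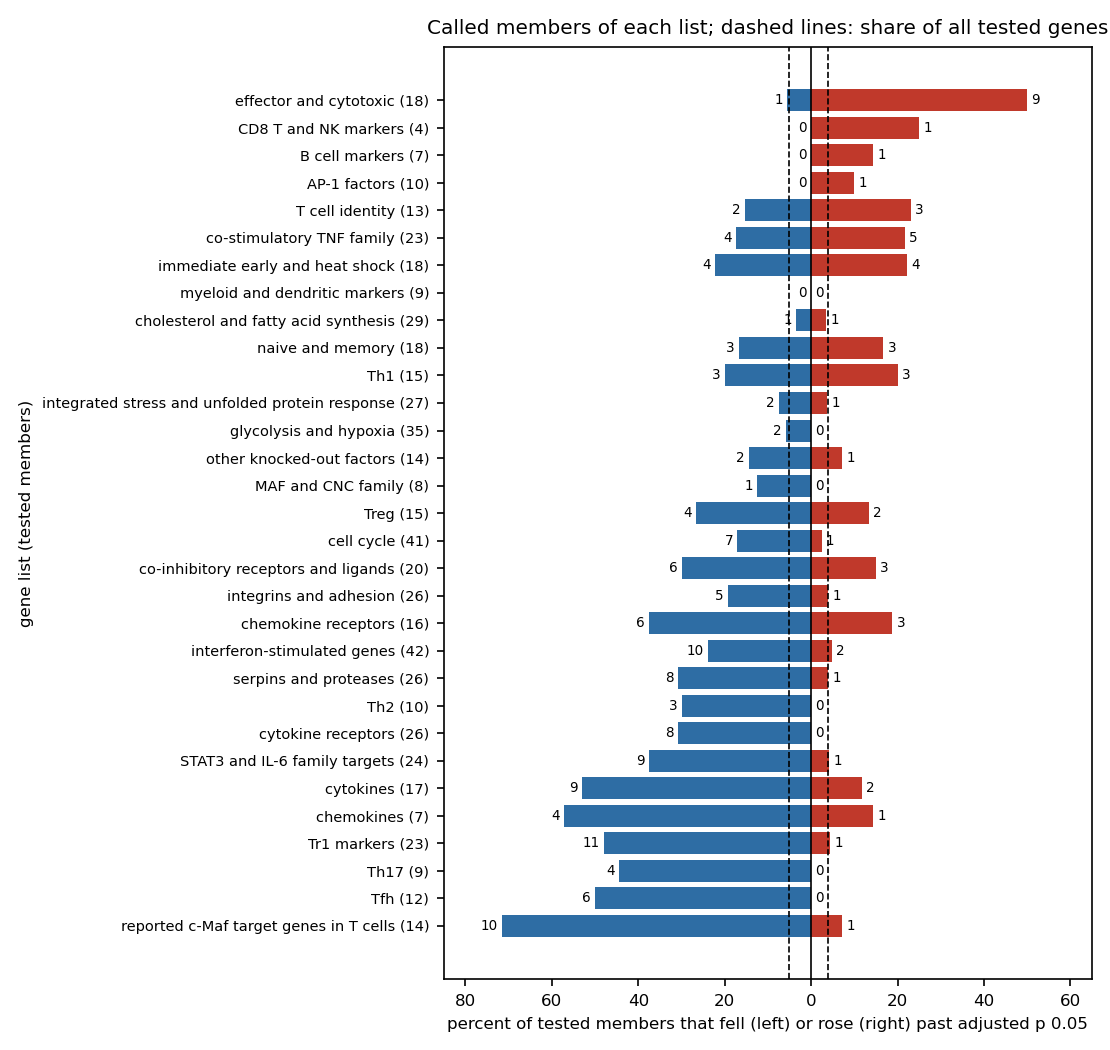
Percent of the tested members of each gene list that rose (right) or fell (left) past an adjusted p of 0.05 in Maf_KO against the controls, with counts at the bars and tested members in brackets. Dashed lines give the share of all tested genes, 3.93% for rises and 5.09% for falls. Effector and cytotoxic genes reach furthest to the right (9 of 18), and reported c-Maf targets furthest to the left (10 of 14).

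Helper lineages were touched unevenly. Follicular helper genes fell in 6 of 12 and rose in 0, with a median of -0.28: besides Il21 and Icos they were Pou2af1, Sh2d1a, Tox and Btla. Tox lost its call without control 2 or 3 or Maf_KO 1 or 3, and Btla without control 1 or Maf_KO 1 or 2, with log2 changes between -0.38 and -0.26. Sh2d1a, which encodes the adaptor SAP, went from 30.5, 26.4 and 25.8 to 20.2, 17.3 and 18.1 CPM, and Pou2af1, a coactivator of Oct factors, from 18.6, 21.1 and 21.2 to 11.7, 14.7 and 12.2 CPM. Both were lower in every knockout library, with log2 changes of -0.58 and -0.65. Th17 genes fell in 4 of 9 and rose in 0, but with 1 called member without control 1 or Maf_KO 2 and 2 without Maf_KO 1 or 3. Th1 genes were split, with 3 of 15 up and 3 down and a median of -0.04, and Tbx21, which encodes the Th1 factor T-bet, did not pass at 181, 213 and 207 CPM in the controls and 204, 193 and 186 in Maf_KO. Of 10 Th2 genes 3 fell (Il4, Il4ra and Dusp6) with a median of 0.00, and Gata3 did not pass (log2 0.06, adjusted p = 0.863 in edgeR). Of 15 regulatory T cell genes 4 fell and 2 rose, with a median of -0.16, while Foxp3 was low and did not pass, at 11.8, 11.6 and 13.8 and 13.3, 14.2 and 11.6 CPM.

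Of the other factors knocked out in the series, 14 were tested. Prdm1 and Ets1 fell, Atf3 rose and 11 did not pass. Ets1 went from 999, 1013 and 1022 to 756, 708 and 741 CPM, with all knockout libraries below all controls (log2 -0.46 ± 0.06, adjusted p = 8.33e-06 in edgeR). Atf3 went from 17.6, 17.04 and 18.9 to 21.99, 25.98 and 22.7 CPM, a call lost without control 1 or 2 or Maf_KO 2, where its log2 change was 0.39, 0.37 and 0.32. Stat3, Hif1a, Irf4 and Batf did not pass, though Stat3, like Irf4, did when only the 6 libraries were fitted (log2 0.13, adjusted p = 0.0487 in edgeR). Maf relatives did not rise past the threshold: of 8 tested members of the MAF and CNC family Maf alone was called, with Mafk at 31.7, 32.2 and 33.1 CPM in the controls and 38.3, 35.6 and 38.3 in Maf_KO and Bach2 at 130.1, 129 and 128 and 137, 132 and 146. Bach1, at 3.58, 6.36 and 5.48 and 2.86, 3.77 and 3.02 CPM, was called lower without control 1 (log2 -0.87, adjusted p = 0.0458 in edgeR). Of 24 genes linked to STAT3 and the IL-6 family 9 fell and 1, Myc, rose, with a median of -0.14. Socs3, the feedback inhibitor of IL-6 family and IL-27 signalling, was at 276, 300.5 and 307 CPM in the controls and 204, 202 and 207 in Maf_KO (log2 -0.53 ± 0.06, adjusted p = 1.35e-06 in edgeR).

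Interferon-stimulated genes fell in 10 of 42 and rose in 2, around a median of -0.19, and 7 were called without Maf_KO 3. Trim30a fell from 191, 194 and 155 to 106, 111 and 107 CPM and Irf7, a factor of the interferon response, from 20.7, 23.3 and 19.3 to 11.6, 14.5 and 11.3 CPM. Of the 5 guanylate-binding proteins on the list 4 fell, among them Gbp4, Gbp6 and Gbp7 with log2 changes of -0.42, -0.41 and -0.55, and Gbp3 did not pass. The call of Gbp4 was lost without control 1, Maf_KO 2 or Maf_KO 3 (adjusted p = 0.0784, 0.104 and 0.0514 in edgeR). Usp18, which restrains interferon signalling, rose from 35.01, 31.4 and 33.6 to 51.1, 48.7 and 59.9 CPM, with no overlap (log2 0.67 ± 0.09, adjusted p = 3.22e-05 in edgeR). Tgtp1 also passed the test, but its values were 60.2, 0 and 0.119 CPM in the controls and 0, 0 and 1.29 in Maf_KO, so that 1 control library carried the call. Without control 1 its log2 change was 2.59 (adjusted p = 0.807, edgeR), and reads can be shared with its near-identical copy Tgtp2.

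Metabolic programmes and the integrated stress and unfolded protein responses held few called genes, and the called cell cycle genes moved by small amounts. Of 35 glycolysis and hypoxia genes 2 fell, hexokinase Hk2 and glucose transporter Slc2a1, with log2 changes of -0.39 and -0.35. That count was 1 without control 2 or Maf_KO 2, 0 without Maf_KO 3 and 9 without Prdm1_KO 3, and the median of the list was -0.03. Of 41 cell cycle genes 7 fell and 1, Ccnd2, rose, with log2 changes from -0.38 to 0.35 over the list and a median of -0.10, where 5.09% of all tested genes fell. The called cell cycle genes were 2 without control 1 or Maf_KO 3 and 4 without Maf_KO 2, and Mki67 did not pass (log2 -0.21, adjusted p = 0.156 in edgeR) except without a filter on low counts (adjusted p = 0.0463). Of 29 cholesterol and fatty acid genes 1 rose and 1 fell, and 0 passed without control 1, control 2, Maf_KO 1 or Maf_KO 3 and 5 without Prdm1_KO 3. Of 27 genes of the integrated stress and unfolded protein responses 1 rose and 2 fell, 1 in all without control 1 or Maf_KO 2. Medians were 0.05 and 0.04, and neither list held many more calls than the 9.02% of all tested genes. Of 18 immediate early and heat shock genes 4 rose and 4 fell around a median of 0.09. These are larger shares than the 3.93% and 5.09% of all tested genes. Called members of this list were 5 without control 2, Maf_KO 1 or Maf_KO 2. Their summed level, which can move with handling, ranged from 1212 to 1360 CPM in the controls and 1340 to 1401 in Maf_KO, and its part in the results was not tested.

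Genes of naive and memory cells were split, with 3 of 18 up and 3 down, a median of 0.08, and 3 called without control 1 and 2 without Maf_KO 2. The chromatin organiser Satb1 fell from 406, 413 and 388 to 314, 301 and 336 CPM, with no overlap (log2 -0.34 ± 0.06, adjusted p = 0.00111 in edgeR). Of 26 integrin and adhesion genes 5 fell and 1 rose, with a median of -0.05, Emp1, Pdpn and Sema4f among them. Within the T cell identity list 3 of 13 rose and 2 fell, by no more than 0.41 on the log2 scale, with 3 called without control 1, Maf_KO 2 or Maf_KO 3. Cd247, the zeta chain of the T cell receptor complex, was at 324, 314 and 331 CPM in the controls and 238, 237 and 255 in Maf_KO, and the kinase Zap70 at 517, 517 and 557 and 432, 441 and 422. Of 10 AP-1 factors Atf3 alone was called.

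To ask whether these changes recur when Maf is lost in cells that already lack Prdm1, as labelled, DKO was set against Prdm1_KO. This comparison shares no library with the first, and all its cells carry Cre. There 263 genes passed the threshold (2.32%), of which 118 were higher in DKO (1.04%) and 145 lower (1.28%). Of the 445 genes that rose without Maf, 301 (67.6%) had the same sign without Prdm1, 55 passed in the same direction and 3 in the opposite one. Their median log2 change in DKO against Prdm1_KO was 0.09. Of the 576 that fell, 475 (82.5%) had the same sign, 93 passed in the same direction and 4 in the opposite one. The median of these falls in DKO against Prdm1_KO was -0.15. How many of all tested genes had the same sign in both comparisons was not counted, so the sign shares have no background beside them. Seen from the other side, 46.6% of the genes that rose in DKO and 64.1% of those that fell there had also been called in Maf_KO. With 2 DKO libraries the count of 263 was unsteady: it was 123 and 90 without DKO 1 and 2, 159 without Prdm1_KO 2 and 626 without Prdm1_KO 3.

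Several of the named genes moved in the same direction in both settings, by like or unlike amounts. Dclk1 was at 26.6, 31.4 and 28.2 CPM in Prdm1_KO and 82.2 and 72.2 in DKO, a log2 change of 1.43 ± 0.11 (adjusted p = 6.82e-08, edgeR), next to 1.36 in cells with Prdm1. Pdpn went from 34.2, 34.8 and 26.1 to 5.61 and 7.47 CPM, below the Maf_KO libraries (log2 -2.28 ± 0.18, next to -1.54 with Prdm1; interaction adjusted p = 0.168 in edgeR). Angptl2 was at 82.5, 67.3 and 86.1 and 30.5 and 36.7 CPM, with log2 changes of -1.23 here and -1.22 there. Il21 likewise fell from 126, 109 and 108 to 54.8 and 63.1 CPM, nearly the level of Maf_KO, with an adjusted p of 3.47e-07 in edgeR, and Cdh23 from 47.9, 48.03 and 71.6 to 26.2 and 23.96. Emp1 was already at 8.13, 6.10 and 5.79 CPM in Prdm1_KO and at 1.79 and 0.970 in DKO, the lowest of the 4 groups (log2 -2.24 ± 0.27, adjusted p = 2.45e-05 in edgeR). Socs3, Ifng, Csf1 and S100a6 kept both their direction and their call, with log2 changes of -0.51, -0.60, -1.32 and 0.82 in DKO against Prdm1_KO and edgeR adjusted p-values of 3.52e-05, 7.03e-04, 5.38e-04 and 1.53e-06. Xcl1 averaged 4.45 CPM in the controls, 11.97 in Prdm1_KO, 13.1 in Maf_KO and 45.4 in DKO, and its rise in DKO had a log2 size of 1.91 ± 0.15. Klrc1, which encodes the inhibitory receptor NKG2A, rose by 1.08 ± 0.08 on the log2 scale in DKO, and by 0.31 in Maf_KO, where its call was lost without Maf_KO 2.

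**Figure D5:**
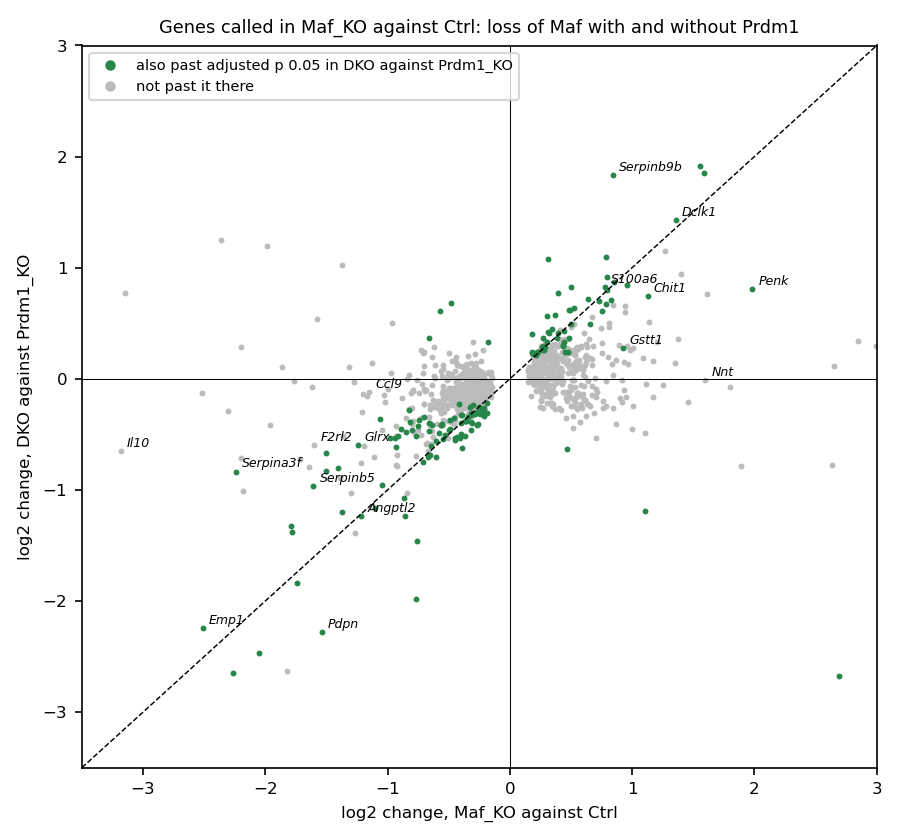
Log2 change on losing Maf in cells lacking Prdm1 (DKO against Prdm1_KO, vertical) against that in cells with Prdm1 (Maf_KO against controls, horizontal), for the 1020 genes other than Maf called in the latter, 5 of them outside the axes. Green genes also passed an adjusted p of 0.05 in DKO against Prdm1_KO. Dclk1, S100a6, Angptl2 and Emp1 lie near the dashed line of equal change, while Nnt and Ccl9 lie near no change on the vertical axis and Il10, at -0.65, lies far above the line.

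The difference between the settings was itself tested as an interaction in the fit, and 124 genes passed (1.10%). Without DKO 2 that count was 41, without Maf_KO 1 and 2 it was 68 and 78, and without control 3 and Prdm1_KO 3 it was 201 and 405. Il10 had a log2 change of -0.65 ± 0.39 in DKO against Prdm1_KO, which did not pass (adjusted p = 0.505, edgeR). It was one of the genes with an interaction, by 2.53 ± 0.47 on the log2 scale (adjusted p = 0.00702, edgeR), a call lost without DKO 2 (adjusted p = 0.268). In cells lacking Prdm1 it stood at a mean of 1.70 CPM before Maf was lost as well, and how far that low level sets the difference was not tested. Nnt changed by -0.01 in DKO against Prdm1_KO, with 19.1 and 18.1 CPM in the DKO libraries, which lack Maf as Maf_KO does (interaction -1.61 ± 0.13, adjusted p = 3.67e-07 in edgeR). For Serpina3f the log2 change was -0.83 instead of -2.24, for Ccl9 -0.12 instead of -1.15 and for Gstt1 0.28 instead of 0.93. Serinc3, a membrane protein, fell with Prdm1 present, from 115, 115 and 107 to 82.2, 81.2 and 77.7 CPM, and rose without it, from 84.04, 77.3 and 72.4 to 126 and 123 CPM. No library of either pair overlapped, and the interaction was 1.16 ± 0.10 (adjusted p = 3.67e-07, edgeR). Cfl2, a cofilin that severs actin, likewise had log2 changes of -0.57 and 0.61, the first lost without control 3 or Maf_KO 2 or 3 and the second without Prdm1_KO 2 or 3 or either DKO library. Ctla4 had a log2 change of -0.28 in DKO and -0.83 in Maf_KO (interaction 0.54 ± 0.10, adjusted p = 0.00463 in edgeR).

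A direct comparison of Maf_KO with Prdm1_KO called 928 genes (8.20%), 486 higher in Maf_KO (4.29%) and 442 lower (3.91%), and 598 without Maf_KO 2. Timp1 stood on opposite sides of the controls, at 185, 177 and 159 CPM in Prdm1_KO and 46.6, 47.03 and 59.1 in Maf_KO, with 99.1, 102 and 89.7 CPM in the controls between them (Maf_KO against Prdm1_KO, log2 -1.77 ± 0.09, adjusted p = 2.85e-11 in edgeR). Ccl5 and the decoy receptor Il1r2 were low in Prdm1_KO, at 96.9, 95.4 and 91.5 and 23.1, 31.4 and 19.2 CPM, while Maf_KO held 257, 285 and 284 and 70.6, 69.97 and 69.6 CPM. Lif, a cytokine of the IL-6 family, stood at 96.8, 93.5 and 93.05 CPM in Prdm1_KO and 29.7, 33.8 and 34.9 in Maf_KO. Emp1, Glrx and F2rl2 did not pass in this comparison, with adjusted p-values of 0.715, 0.1001 and 0.234 in edgeR and log2 differences of -0.15, 0.14 and 0.41. Every library of both knockouts lay below every control in these 3 genes.

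The genes beside Maf on mouse chromosome 8 were also read, as a check of the region around the deleted allele. Of the 20 nearest tested genes, 10 on each side in RefSeq order, Atmin and Cmip had log2 changes of 0.42 and 0.33, and Gabarapl2 and Nudt7 of -0.24 and -0.46, so 4 of 20 passed, where 9.02% of all tested genes did, and 2 passed in DESeq2. Both direct neighbours, Wwox and Cdyl2, did not pass (adjusted p = 0.538 and 0.0994, edgeR). Between 1 and 6 of the 20 passed with any 1 library left out, 1 without control 1, control 2 or Maf_KO 3 and 2 without Maf_KO 1 or 2.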

How the data were processed

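Expected counts and TPM per gene were made by the authors with TopHat and RSEM on the mouse build mm9, per the submitters' processing notes, whose versions are not stated in the labels. The deposited expected counts were rounded to whole numbers before testing, since 42.6% of the nonzero values were not whole. The TPM values, as deposited, served only for levels between genes. The tables held 23366 genes, of which 11316 passed edgeR's filter on low counts.

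The 11 libraries were fitted together with 4 group means in edgeR 4.0.16 (R 4.3.3, limma 3.58.1, TMM scaling, quasi-likelihood F-test), with Benjamini-Hochberg adjustment over all tested genes and a threshold of 0.05. CPM are TMM-scaled. Groups were taken from the sample titles, and DKO 3 was left out. A floor of 3 counts was used for genes at 0, and it covers counting error only. Reads carry no strand, so a gene and its antisense or overlapping partner cannot be told apart.

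Genes named are the 15 largest changes in each direction among called genes averaging 20 CPM or more in either group and no overlap of the libraries, and the 6 largest such genes of the interaction and of the direct comparison; list members and further genes were named after their values were seen, and 1 named fall and some list members are not reported here. The members and gene lists were chosen with earlier results of these data known. Scripts were tested on simulated counts with 200 changed genes. Alternatives were DESeq2 1.42.0, its size factors in edgeR, no filter, a filter of 5 CPM in 3 libraries, only the libraries of the 2 groups compared, the replicate number as a block, and each library left out.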

Additional observations from a re-analysis of the deposited data

Results flagged for a closer look

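The change on losing Maf differed between cells lacking Prdm1 (DKO against Prdm1_KO) and cells with Prdm1 (Maf_KO against controls) in 20 of the genes named by rule, by the interaction term in edgeR's quasi-likelihood test. Of all tested genes 1.10% passed that test. The values given are the log2 change without Prdm1 minus that with Prdm1. Cfl2 and Serinc3 were named for the size of their interaction, so that it passed was set by the choice. The other genes were chosen for their change or separation in Maf_KO against the controls, and the difference subtracts that same change. A difference opposite in sign to the change is therefore favoured by the choice, and no conclusion is drawn from the signs. Among genes that fell in Maf_KO, the difference was 2.53 for Il10, 1.41 for Serpina3f, 0.91 for Serpina3g, 1.03 for Ccl9, 0.84 for Furin, 0.69 for Dhrs7, 0.68 for Cysltr1, 0.64 for Serpinb5, 0.64 for Glrx, 1.19 for Cfl2 and 1.16 for Serinc3. Among genes that rose, it was -1.61 for Nnt, -1.18 for Penk, -1.13 for Ifitm1, -1.11 for Dusp2, -1.04 for Lamp1, -0.81 for Smtn, -0.70 for Sema4f and -0.65 for Gstt1. Serpinb9b was the exception, with a difference of 1.00, since it rose from 14.8, 15.8 and 11.3 CPM in Prdm1_KO to 54.2 and 44.9 in DKO and from 20.4, 11.6 and 11.7 in the controls to 26.7, 28.2 and 24.8 in Maf_KO.

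Penk stood at 22.04, 24.3 and 19.1 CPM in Prdm1_KO and 37.7 and 38.3 in DKO, so that both Maf-deficient groups lay at a like level. Glrx was at 165, 164 and 156 CPM in Prdm1_KO and 105 and 109 in DKO. Ccl9, at 66.7, 58.5 and 57.9 and 59.1 and 53.2 CPM, had groups that overlapped there. The interactions of Il10, Ifitm1, Furin and Dhrs7 were lost without DKO 2, with adjusted p-values up to 0.268. That of Smtn was lost in 2 of 16 alternatives, those of Lamp1 and Serpinb5 in 4, that of Serpinb9b in 7, those of Sema4f and Cysltr1 in 8 and that of Dusp2 in 9.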

How the results depend on the processing

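Maf and Il10 were called as falls under all 17 alternatives, Il10 with log2 changes from -3.25 to -3.14. Of 151 called genes named among the members and lists 97 kept their call under every alternative run, 54 lost it in at least 1 and 1 reversed: Tgtp1, from -5.55 to 2.59 without control 1 (-10.69 without Maf_KO 3). The 1021 calls of Maf_KO against the controls were 1261 on the 6 libraries alone, 999 with DESeq2's size factors, 815 in DESeq2, 1292 without a filter, 1028 with the stricter filter and 510 to 1346 with a library left out. For DKO against Prdm1_KO the 263 calls were 142 on its own 5 libraries, 461 without a filter and 90 to 626 with a library left out. The interaction's 124 calls were 349 without a filter and 41 to 405 with a library left out. Maf_KO against Prdm1_KO, with 928 calls, ranged from 598 to 1079 with a library left out. List members called, 132 in all, were 162 without a filter and ranged from 97 to 160 with a library left out, and genes near Maf, 4 in all, ranged likewise from 1 to 6, with 2 in DESeq2. With the replicate number as a block 1034 genes were called. Deviations of same-numbered libraries correlated between -0.07 and 0.08, and those of other pairs between -0.08 and 0.09. Each deviation is taken from a mean of only 2 or 3 libraries. The correlations therefore cannot show whether same-numbered libraries share an animal or a culture, which the labels do not state. Where an alternative moved a result the cause was not tested. Depth limits genes near the 3-count floor, such as Il2, Il4 and Cd8a, and with 2 DKO libraries calls there rest on few samples.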

Other observations

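A small group of genes, singled out after their values were seen, stood apart in the 3 Maf_KO libraries alone, while DKO cells, which also lack Maf, were near the level of Prdm1_KO. Lamb3, which encodes a chain of laminin, had 0 counts in each Maf_KO library against 4.08, 3.52 and 4.05 CPM in the controls, at least 11.5-fold lower on the floor of 3 counts in each library. In DKO it stood at 3.91 and 4.37 CPM and in Prdm1_KO at 4.996, 4.29 and 4.30 CPM. Ap4s1, a subunit of the AP-4 adaptor complex, was at 11.7, 12.2 and 11.4 CPM in the controls, 2.36, 2.41 and 1.40 in Maf_KO and 11.2 and 10.9 in DKO, so that the groups with and without Prdm1 did not move alike (interaction 2.39 ± 0.25, adjusted p = 1.24e-05 in edgeR). Ttc39c went the other way, at 1.69, 2.30 and 1.67 CPM in the controls, 12.3, 12.6 and 15.6 in Maf_KO, 3.43, 3.62 and 3.77 in Prdm1_KO and 6.04 and 3.01 in DKO. Rps6kc1, a kinase-like protein, was at 12.9, 10.6 and 13.6 CPM in the controls, 27.1, 29.2 and 38.3 in Maf_KO and 16.2 and 15.9 in DKO, with an interaction lost without DKO 2 (adjusted p = 0.0551, edgeR). Nnt, described above, has the same pattern. Its cause was not tested.

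Podnl1, a leucine-rich repeat protein of the extracellular matrix, moved alike in both settings. It was at 18.3, 14.9 and 18.9 CPM in the controls and 3.48, 6.18 and 5.39 in Maf_KO, and at 14.01, 13.3 and 17.03 CPM in Prdm1_KO and 6.97 and 4.37 in DKO. The log2 changes were -1.78 ± 0.20 and -1.37 ± 0.21, with adjusted p-values of 2.32e-06 and 6.48e-04 in edgeR.

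By chromosome, called genes made up 6.77% (chromosome 8) to 11.3% (chromosome 6) of tested genes. On the X chromosome 3 of 367 tested genes rose (0.817%) and 30 fell (8.17%), where on the autosomes 2.22% to 6.39% rose and 2.68% to 7.95% fell. Of 4 tested sex-linked marker genes, Ddx3y, Kdm5d, Eif2s3y and Uty, Eif2s3y alone was called, with a log2 change of -0.27. Together with Xist, which was not tested, their summed level was 212 to 234 CPM in the controls and 181 to 192 in Maf_KO. This split was noticed after the values were seen, and its part in the other results was not tested.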
